A study of Mus musculus with 12 samples.

Results

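The 8 genes Rell1, Dnah7a, Tbc1d16, Fsd1l, Nol4l, Gpr34, Itih5 and Osgin1 were followed through regulatory T cells (Tregs) of the mouse that had lost CD25. They were picked from 24419 gene symbols, of which 12461 had enough reads to be tested, because their RNA fell strongly after CD25 loss in 1 or both of the sorted Treg fractions and none of them is a known marker of either fraction. All 8 were among the genes with enough reads. Their fall between CD25-deleted and control cells is therefore what chose them, and it is given here as a description with no test.

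Interleukin-2 is the growth and survival cytokine of Tregs. CD25, encoded by Il2ra, is the alpha chain that lets the interleukin-2 receptor bind it with high affinity, and the receptor's kinases JAK1 and JAK3 then activate the transcription factor STAT5. STAT5 switches on feedback inhibitors such as Cish and Socs2 and supports Foxp3, the transcription factor that defines the lineage. None of the 8 genes is a core component of that pathway. They encode a receptor-like membrane protein (Rell1), a ciliary motor subunit (Dnah7a), a brake on a small GTPase of endosomes (Tbc1d16), a fibronectin and SPRY domain protein (Fsd1l), a relative of the nucleolar protein NOL4 (Nol4l), a lipid receptor (Gpr34), a secreted matrix protein (Itih5) and an oxidative stress response protein (Osgin1).

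Total RNA was sequenced from 12 libraries in 4 groups of 3. Central Tregs (cTreg) were sorted as CD62L-high cells and effector Tregs (eTreg) as CD62L-low cells, each from CD25-intact (WT) and CD25-deleted (KO) animals. All animals, controls included, carried R26tomato+/+, a reporter, and Foxp3eGFPERT2+/+, a tamoxifen-inducible Cre expressed from Foxp3, which in KO animals deletes the floxed CD25 gene in Foxp3-expressing cells. All received tamoxifen at 2 mg per kg for 5 days with harvest at 10 days. Cells were live CD4+ cells positive for GFP and tdTomato of spleen and lymph nodes, each library a pool of 2 to 3 mice, and KO cells were also gated as CD25-low, which WT cells were not. The labels give no age. They contradict each other on the alleles: the genotype field gives CD25FL/FL for the samples titled WT and CD25WT/WT for those titled KO, whereas the cell type field sides with the titles, which set the groups here. Il2ra RNA sided with the titles in all 12 libraries, at 523 to 580 CPM (counts scaled to library size by TMM) in WT cTreg against 112 to 122 in KO cTreg. In eTreg it was at 464 to 562 CPM in WT against 116 to 131.5 in KO. Because the KO cells alone were sorted as CD25-low, their low Il2ra RNA does not by itself settle the alleles.

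Libraries held 14567313 to 19121577 counts. Rn45s, the ribosomal RNA precursor, took 3.19 to 24.4% of them, more in cTreg than in eTreg. Foxp3, Cd4 and the other Treg markers in the table (6 of 7) were present in every group, but not at equal levels. Foxp3 averaged 392.5 CPM in WT and 226.6 in KO cTreg, and 244.4 in WT and 175.8 in KO eTreg. Il2ra was lower in KO as well, while Ctla4, Ikzf2, Cd4 and Cd3e had higher means in KO than in WT in either gate. The summed level of 7 eTreg-gate markers was 256 to 376 CPM in WT cTreg, 871 to 934 in KO cTreg, 1511 to 1714 in WT eTreg and 1800 to 2098 in KO eTreg. The summed level of 7 cTreg-gate markers was 3832 to 4090 CPM in WT cTreg and 3559 to 3768 in KO cTreg. For other cell types, 8 B cell markers summed to 11.99 to 13.99 CPM in WT cTreg and 25.7 to 38.5 in KO cTreg, and to 27.5 to 39.2 in WT eTreg and 50.9 to 64.9 in KO eTreg. From WT to KO cTreg Cd22 went from 0.972 to 23.4 CPM, while Cd79b went from 11.2 to 8.15 and Cd79a from 0.882 to 0.665. The 5 NK cell markers summed to 3.23 to 4.81 CPM in WT cTreg and 13.3 to 16.5 in KO cTreg, mostly Eomes, with Klra4 and Klra8 at 0. In eTreg they summed to 1.27 to 3.83 CPM in WT and to 1.96, 15.7 and 3.71 in KO, where replicate 2 stood apart; without it the median log2 fold change of the 8 genes in eTreg was -1.22, against -1.27 with it. The part of these shifts in the values below was not tested.

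Where these genes start is shown first, because 4 of them (Rell1, Fsd1l, Dnah7a and Itih5) represent the patterns described below. Each line is the stretch of 250 bases before the RefSeq start site on the gene's own strand (build GRCm38.p6), at chr5:63968898-63969147 on the minus strand for Rell1, chr4:53631174-53631423 on the plus strand for Fsd1l, chr1:53706785-53707034 on the minus strand for Dnah7a and chr2:10153293-10153542 on the plus strand for Itih5. Capitals mark the only match to any of 4 motifs searched.
Rell1: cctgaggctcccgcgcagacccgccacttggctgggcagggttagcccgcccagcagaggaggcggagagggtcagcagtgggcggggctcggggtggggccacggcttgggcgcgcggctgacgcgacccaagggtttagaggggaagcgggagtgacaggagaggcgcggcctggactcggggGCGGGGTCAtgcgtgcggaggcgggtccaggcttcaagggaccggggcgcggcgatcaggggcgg
Fsd1l: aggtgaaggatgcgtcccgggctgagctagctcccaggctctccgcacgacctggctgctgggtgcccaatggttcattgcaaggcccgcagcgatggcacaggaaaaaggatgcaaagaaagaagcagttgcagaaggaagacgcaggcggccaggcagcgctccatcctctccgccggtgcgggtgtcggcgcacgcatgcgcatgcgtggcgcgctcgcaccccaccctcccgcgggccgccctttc
Dnah7a: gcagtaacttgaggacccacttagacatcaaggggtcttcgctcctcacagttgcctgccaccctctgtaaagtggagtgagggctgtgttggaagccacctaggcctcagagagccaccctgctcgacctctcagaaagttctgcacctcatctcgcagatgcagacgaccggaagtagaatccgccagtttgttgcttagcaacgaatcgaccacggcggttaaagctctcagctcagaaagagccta
Itih5: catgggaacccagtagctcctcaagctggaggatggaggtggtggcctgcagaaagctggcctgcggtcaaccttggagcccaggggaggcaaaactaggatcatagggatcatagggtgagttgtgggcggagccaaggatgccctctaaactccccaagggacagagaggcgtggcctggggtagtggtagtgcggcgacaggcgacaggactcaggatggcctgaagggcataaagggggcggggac
The motifs, searched on both strands of 8 windows of 300 bases (250 before and 50 after the start) for 6 of the 8 genes, were TTCNNNGAA for STAT5, TGTTTAC for forkhead factors such as FOXP3, TGACNNNGC for the oxidative stress factor NRF2 and CACGTG for E-box factors. They occur in 8.30%, 3.65%, 12.4% and 7.15% of 32851 windows of that length. The letters found were those of the NRF2 motif in Rell1, on the minus strand of the printed sequence, starting 65 bases before the start site. These windows differed in base composition. Both windows of Nol4l reached 81.0% and 80.3% G+C, that of Rell1 74.7% with 31 CpG, and the first of Fsd1l 68.7% with 34 CpG, against a median of 52.7% and 7 CpG over all windows. Those of Dnah7a (55.7%, 13 CpG), Itih5 (60.7%, 9 CpG) and Osgin1 (58.7%, 6 CpG) were closer to that median. Gpr34 and Tbc1d16 are named only.

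In CD25-deleted cTreg all 8 genes were lower than in WT cTreg, to between 13.01 and 35.5% of the WT mean. In eTreg the share left varied more, from 21.2 to 73.1%. The median log2 fold change of the 8 genes was -1.85 in cTreg and -1.27 in eTreg, against 0.0014 and 0.00698 over all 12461 genes. In edgeR's quasi-likelihood test (Benjamini-Hochberg adjusted p under 0.05), 8 of 8 were called lower in cTreg, where 12.6% of all genes were called lower and 14.8% higher. In eTreg 6 of 8 were called lower, where 3.40% of all genes were called lower and 3.25% higher. The 2 not called in eTreg were Itih5 and Osgin1. These counts restate how the genes were chosen. With a replicate block within the 6 eTreg libraries, 1712 genes were called in eTreg in place of 829. In bulk RNA, fewer cells that make a transcript and less of it per cell cannot be told apart.

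The name under which the 8 genes were grouped, lowered independently of the subset, described 3 of them. In Rell1, Dnah7a and Tbc1d16 the log2 fall in eTreg was at least as large as that in cTreg, with differences (eTreg minus cTreg effect) of -0.25 ± 0.19 (SE), -0.45 ± 0.30 and -0.17 ± 0.30. In the other 5 the eTreg fall was the smaller by 1.05 ± 0.24 (Fsd1l), 1.11 ± 0.23 (Nol4l), 1.20 ± 0.23 (Osgin1), 1.21 ± 0.27 (Gpr34) and 1.34 ± 0.36 (Itih5) on the log2 scale. Both falls chose the genes, so these differences carry no test. Falls of at least 1 log2 that also passed the adjusted p were seen for 211 genes in cTreg (8 of them members), 74 in eTreg (4 members) and 45 in both (Fsd1l, Dnah7a, Rell1 and Tbc1d16).

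**Figure D1:**
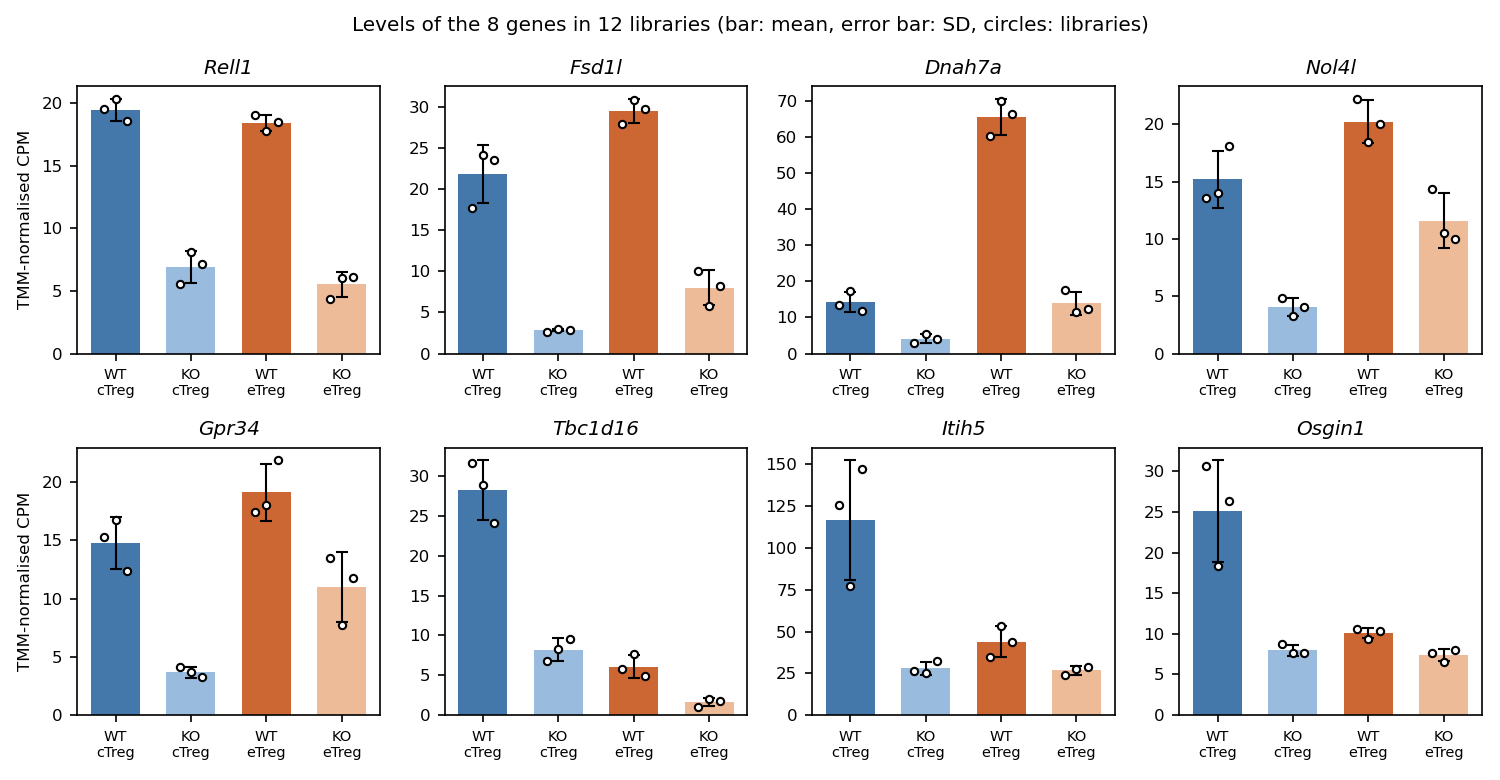
TMM-normalised CPM of each gene (vertical axes start at 0 and differ between panels) in WT and KO cTreg (blue) and WT and KO eTreg (orange), 3 libraries a group; bars are means, error bars SD and circles libraries. KO circles lie below the WT circles of the same gate in every panel, by a narrow margin in eTreg for Itih5 (34.5 against 28.9 CPM) and Osgin1 (9.36 against 7.98 CPM). Over all tested genes, KO lay wholly below WT for 19.47% in cTreg and 11.68% in eTreg. The fall chose the 8 genes, so this separation restates that choice.

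**Figure D2:**
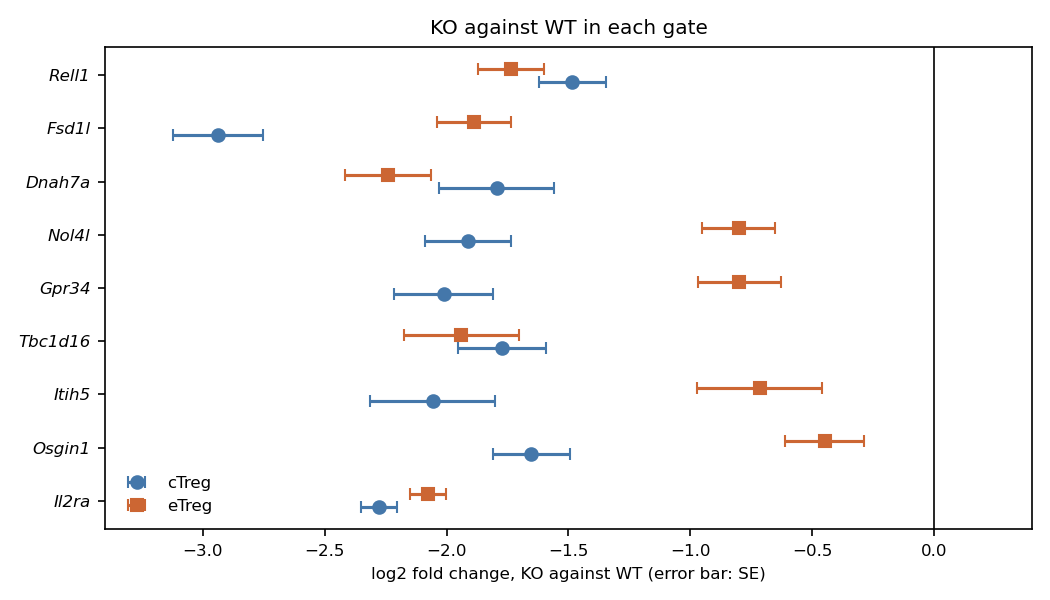
Log2 fold change of KO against WT for the 8 genes and for Il2ra, in cTreg (circles) and eTreg (squares), with SE from the fit over all 12 libraries. The marks of Rell1, Dnah7a and Tbc1d16 lie close together, while those of Fsd1l, Nol4l, Gpr34, Itih5 and Osgin1 lie at least 1 log2 apart.

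Rell1 encodes a single-pass membrane protein related to RELT, a member of the tumour necrosis factor receptor superfamily. The gene lies at chr5:63908897-63968897 on the minus strand (mm10). It stood at 19.6, 20.3 and 18.6 CPM in WT cTreg, 5.56, 8.11 and 7.12 in KO cTreg, 19.1, 17.8 and 18.5 in WT eTreg and 4.39, 6.04 and 6.15 in KO eTreg. The 2 WT groups overlapped each other, the 2 KO groups did too, and no KO library reached a WT library. The log2 fold change was -1.48 ± 0.14 (SE) in cTreg and -1.73 ± 0.14 in eTreg, leaving 35.5 and 29.9% of the WT mean. Of the 8 genes it was the one whose level followed the CD25 genotype with the least difference between the gates.

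Dnah7a encodes an axonemal dynein heavy chain, a motor subunit of cilia and flagella, and lies at chr1:53397006-53706784 on the minus strand. Its levels were 13.6, 17.2 and 11.9 CPM in WT cTreg, 2.89, 5.36 and 3.89 in KO cTreg, 60.2, 70.2 and 66.6 in WT eTreg and 17.7, 11.7 and 12.5 in KO eTreg. WT eTreg stood apart from the rest, and KO eTreg had come down into the range of WT cTreg. The log2 fold change was -1.79 ± 0.24 in cTreg and -2.24 ± 0.18 in eTreg, with 28.4 and 21.2% of the WT mean left. Of the stretches of 50 bases in its transcripts, 38.6% also occur in another gene, 29.4% in Dnah7b and 29.1% in Dnah7c, so its counts are uncertain to that extent. Dnah7b had at most 5 counts in a library. The deposited counts hold no entry named Dnah7c, so its reads could not be looked at apart from those of Dnah7a. Of the other members, Nol4l shared most, at 0.757%, and Rell1, Tbc1d16, Itih5, Gpr34 and Osgin1 shared none.

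Tbc1d16 encodes a GTPase-activating protein for RAB4A, which sends membrane receptors from early endosomes back to the cell surface. It lies at chr11:119143045-119228499 on the minus strand. It stood at 31.6, 28.9 and 24.1 CPM in WT cTreg and 6.74, 8.35 and 9.56 in KO cTreg. In eTreg it stood at 5.75, 7.66 and 4.87 CPM in WT and 1.04, 2.00 and 1.72 in KO. KO cTreg overlapped WT eTreg, and KO eTreg was the lowest group, with 18 counts in its lowest library. KO against WT gave a log2 fold change of -1.77 ± 0.18 in cTreg and -1.94 ± 0.24 in eTreg. The gene overlaps the antisense transcript Gm26888 over 454 exonic bases, and Rell1 overlaps the antisense Gm15819 over 104; whether reads were counted by strand is not given in the sources used here.

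Fsd1l, at chr4:53631471-53707009 on the plus strand, had the largest fall of the 8 in cTreg. Its levels were 17.7, 24.1 and 23.5 CPM in WT cTreg, 2.67, 2.93 and 2.90 in KO cTreg, 27.9, 30.8 and 29.8 in WT eTreg and 10.0, 5.83 and 8.15 in KO eTreg. All 4 groups were apart from each other, in the order WT eTreg, WT cTreg, KO eTreg and KO cTreg. The log2 fold change was -2.94 ± 0.18 in cTreg, which ranked 13 among the falls of all 12461 genes, and -1.89 ± 0.15 in eTreg, which ranked 29. The level in KO was 7.69-fold lower in cTreg and 3.68-fold lower in eTreg.

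Nol4l encodes a relative of the nucleolar protein NOL4 and lies at chr2:153407462-153529971 on the minus strand. Its levels were 13.6, 13.99 and 18.1 CPM in WT cTreg, 4.82, 3.29 and 4.09 in KO cTreg, 22.2, 18.4 and 20.0 in WT eTreg and 14.3, 10.5 and 9.97 in KO eTreg. The KO eTreg libraries overlapped WT cTreg, and KO cTreg lay below all the others. Its log2 fold change was -1.91 ± 0.18 in cTreg and -0.80 ± 0.15 in eTreg, with 26.8 and 57.3% left.

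Gpr34 encodes a receptor for lysophosphatidylserine that is best known from microglia and macrophages. It lies at chrX:13632089-13640858 on the plus strand, inside Cask on the opposite strand, and shares no exon with it. Its levels were 15.3, 16.7 and 12.4 CPM in WT cTreg, 4.15, 3.66 and 3.23 in KO cTreg, 17.4, 18.0 and 21.9 in WT eTreg and 13.5, 7.72 and 11.8 in KO eTreg. The order of the groups was that of Nol4l, with KO eTreg overlapping WT cTreg. On the log2 scale Gpr34 changed by -2.01 ± 0.20 in cTreg and -0.80 ± 0.17 in eTreg. The summed level of 10 macrophage and monocyte markers was 7.35 to 10.1 CPM in WT cTreg and 8.97 to 16.6 in KO cTreg. In eTreg it was 6.845 to 9.73 CPM in WT and 6.65 to 12.4 in KO. The markers did not move together. From WT to KO cTreg Itgam went from 1.43 to 4.51 CPM and Lyz2 from 1.17 to 2.21. Cd68 went from 4.75 to 3.94 CPM and Csf1r from 0.387 to 0.336. What part such cells have in the Gpr34 values was not tested.

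Itih5 encodes a heavy chain of the inter-alpha-trypsin inhibitor family, secreted proteins that bind hyaluronan, and lies at chr2:10153571-10256529 on the plus strand. Its levels were 125.8, 77.1 and 147 CPM in WT cTreg, 26.4, 24.99 and 32.6 in KO cTreg, 34.5, 53.1 and 43.9 in WT eTreg and 23.8, 27.6 and 28.9 in KO eTreg. WT cTreg was highest and the most spread, the 2 KO groups overlapped each other, and WT eTreg lay between. The log2 fold change was -2.06 ± 0.26 in cTreg and -0.72 ± 0.26 in eTreg. Per kilobase of exon it was the most abundant of the 8 in WT cTreg, at 14.8 CPM per kb, where Dnah7a was the least abundant at 1.11.

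Osgin1, an oxidative stress response gene induced by NRF2, lies at chr8:119434124-119446256 on the plus strand. Its levels were 30.6, 18.3 and 26.4 CPM in WT cTreg, 8.74, 7.62 and 7.58 in KO cTreg, 10.6, 9.36 and 10.3 in WT eTreg and 7.68, 6.51 and 7.98 in KO eTreg. The order of the groups was that of Itih5. Its log2 fold change was -1.65 ± 0.16 in cTreg and -0.45 ± 0.16 in eTreg, the smallest eTreg fall of the 8, with 73.1% left.

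The difference between the gates, with WT and KO weighted equally, was not itself a criterion of the choice, and it was tested. It is not free of that choice, since known markers of the gates were left out. It also takes in the KO groups, so a KO fall that differs between the gates enters it. Across all genes 80.1% were called in this comparison, 40.1% higher in eTreg and 40.0% lower, so a call alone sets a member apart little. Of the 8 members, 4 were higher in eTreg, 3 were lower and Rell1 was not called. Dnah7a differed most upward, at a log2 fold change of 1.98 ± 0.15 (edgeR's quasi-likelihood test, adjusted p = 8.16e-08). Gpr34 was higher by 0.97 ± 0.13 (adjusted p = 6.10e-06), Nol4l by 0.96 ± 0.12 (8.28e-07) and Fsd1l by 0.96 ± 0.12 (1.94e-06). In the opposite direction, Tbc1d16 had the largest difference, at -2.28 ± 0.15 (adjusted p = 5.50e-10). Itih5 followed at -0.73 ± 0.18 (0.00452) and Osgin1 at -0.71 ± 0.11 (1.97e-05). For Rell1 the value was -0.21 ± 0.10 (adjusted p = 0.0604), and it passed the threshold when KO cTreg replicate 1 (0.0121), KO eTreg replicate 2 (0.0413) or KO eTreg replicate 3 (0.0398) was left out. With a minimum absolute log2 fold change of 1 only Dnah7a and Tbc1d16 remained.

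Seen within each genotype, the gate difference of some members came mostly from 1 of them. Fsd1l, Nol4l and Gpr34 were higher in eTreg by 0.44 ± 0.14, 0.41 ± 0.15 and 0.37 ± 0.17 among WT and by 1.49 ± 0.20, 1.52 ± 0.18 and 1.58 ± 0.20 among KO cells, on the log2 scale. For Itih5 and Osgin1 the differences were -1.40 ± 0.24 and -1.31 ± 0.15 among WT and -0.06 ± 0.27 and -0.11 ± 0.17 among KO cells. Dnah7a (2.203 ± 0.18 and 1.76 ± 0.23) and Tbc1d16 (-2.20 ± 0.18 and -2.36 ± 0.23) differed between the gates in either genotype. These values share libraries with the comparison that chose the genes and are descriptions. The members were chosen for falling in KO, so their fall in KO cTreg at either sign of the gate difference restates that choice. The summed eTreg-gate markers were higher in KO than in WT cTreg. For Fsd1l, Nol4l and Gpr34 the gate difference was larger among KO cells, where the fall in cTreg itself enters it. For Tbc1d16, Itih5 and Osgin1, which were lower in eTreg, the KO fall in cTreg and the gate difference point the same way. What part the shift in gate markers has in the fall of any member was not tested.

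**Figure D3:**
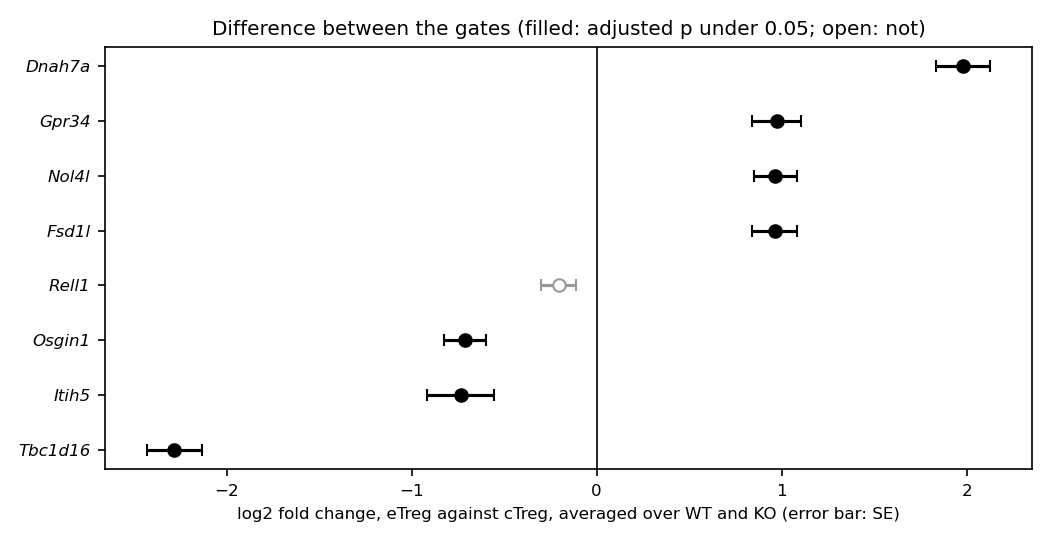
Log2 fold change of eTreg against cTreg averaged over WT and KO for each gene, with SE from the fit over all 12 libraries; filled circles have an adjusted p under 0.05 and the open circle does not. Dnah7a (1.98) and Tbc1d16 (-2.28) lie farthest from 0 on either side, and Rell1 (-0.21) lies nearest to it.

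The members' profiles over the 12 libraries were compared after centring each gene's log2 CPM on its own mean. The closest pair was Nol4l and Gpr34, with a root mean square difference of 0.269 log2, followed by Itih5 and Osgin1 at 0.290. The farthest was Dnah7a and Tbc1d16 at 2.16. Among 8455 other genes that averaged 3 log2 CPM or more, the 5 nearest to the mean pattern of the 8 were Socs2 (0.277), Lta (0.277), Il2ra (0.308), Sh3bgrl2 (0.316) and Cish (0.334). Socs2 and Cish are STAT5-induced feedback inhibitors, Lta encodes lymphotoxin alpha, and Il2ra is the deleted gene itself. With a lower minimum of 1, among 10036 genes, Pla2g4f (0.243) and Specc1 (0.284) entered the 5 in place of Sh3bgrl2 and Cish. The members were chosen for their fall in KO, so other genes that fall in KO lie near their mean by that choice. All of these values share the same 12 libraries and say how alike the profiles were, with no test.

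For single members, the nearest gene was Lta for Rell1 (0.232), Ctsw for Itih5 (0.180), Rcn1 for Osgin1 (0.192), Rgs1 for Nol4l (0.310), Treml2 for Tbc1d16 (0.496) and Socs2 for Fsd1l (0.519). Rragd was nearest to both Gpr34 (0.302) and Dnah7a (0.738). Ctsw, the lysosomal protease cathepsin W, stood at 108 CPM in WT cTreg, 25.4 in KO cTreg, 34.7 in WT eTreg and 21.2 in KO eTreg, close to Itih5 in each group. Rcn1, a calcium-binding protein of the endoplasmic reticulum, followed Osgin1 at a higher level, with 99.2, 34.7, 41.5 and 30.4 CPM in the same order.

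**Figure D4:**
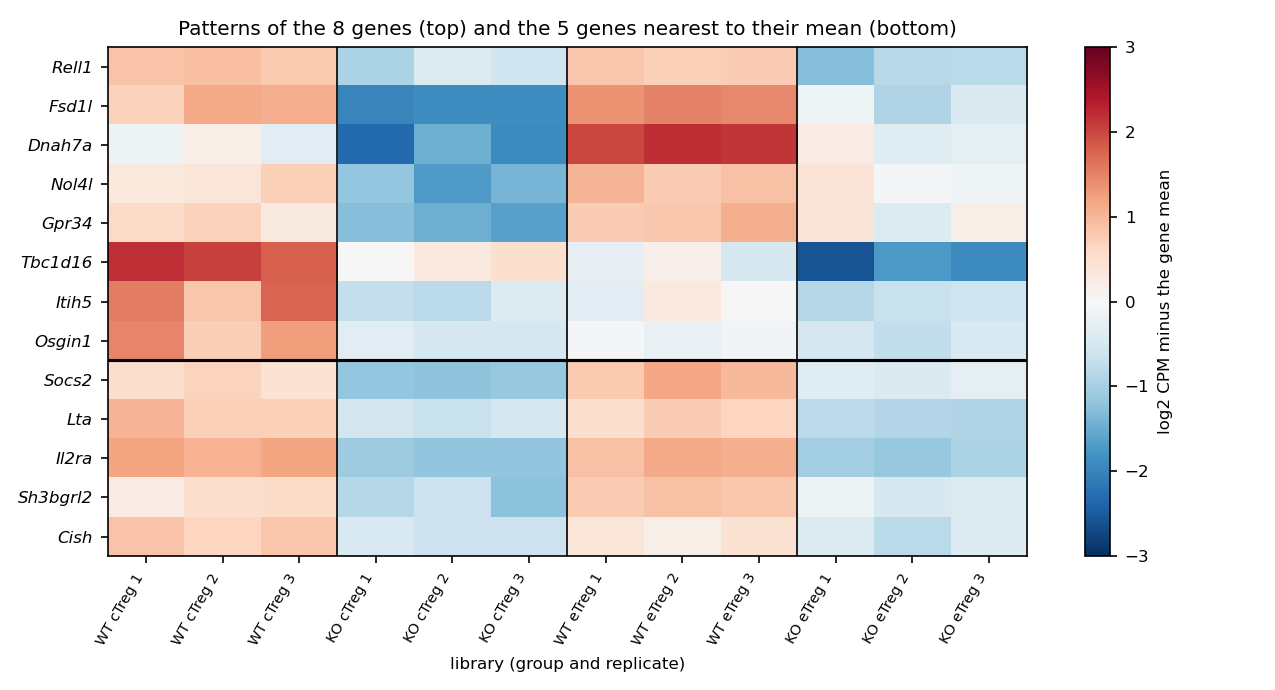
Log2 CPM minus each gene's own mean (colour scale from -3 to 3) in the 12 libraries, for the 8 genes above the line and the 5 genes nearest to their mean pattern below it. The KO columns are bluer than the WT columns of the same gate, Dnah7a is highest in WT eTreg, and Tbc1d16, Itih5 and Osgin1 are highest in WT cTreg.

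The genes beside the members were tested, since neighbours took no part in the choice. The nearest tested genes on either side of the 8 members number 16. In cTreg 2 of them were higher and 5 lower in KO, where 27.5% of all genes were called, and in eTreg 2 were higher and 1 lower, where 6.65% were. The largest change was in 5830416I19Rik, a long intergenic non-coding RNA gene at chr5:64044978-64050228 on the plus strand. It starts 76080 bases beyond the start of Rell1, on the opposite strand, with no tested gene between them. It stood at 8.02, 10.2 and 9.22 CPM in WT cTreg, 0.296, 0.427 and 0.198 in KO cTreg, 12.8, 9.27 and 10.0 in WT eTreg and 0.173, 0.315 and 0.277 in KO eTreg. Summed counts were 361 in WT and 14 in KO cTreg, and 589 and 14 in eTreg. Every KO library was far below every WT library. The log2 fold change was -4.85 ± 0.27 in cTreg (edgeR's quasi-likelihood test, adjusted p = 6.44e-09) and -5.33 ± 0.26 in eTreg (adjusted p = 2.13e-09). These falls ranked 3 and 2 among all genes and exceeded those of Rell1 by more than 3 log2 in either gate. On the other side of Rell1, 1142737 bases away, Arap2 was higher in KO eTreg by 0.48 ± 0.07 (adjusted p = 0.00121) and by 0.16 ± 0.08 in cTreg (0.135).

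Other neighbours changed less. Slc44a1, a choline transporter gene 8992 bases before Fsd1l on the same strand, fell by 0.50 ± 0.11 on the log2 scale in cTreg (edgeR, adjusted p = 0.00357), and its value in eTreg was -0.21 ± 0.11 (0.283). Sfmbt2, a Polycomb group gene beyond Itih5, fell by 0.49 ± 0.11 in cTreg (adjusted p = 0.00298), with -0.34 ± 0.12 in eTreg (0.0937). Beside these, the values of Fsd1l (-2.94) and Itih5 (-2.06) in the same cells were several times larger. Cask, inside which Gpr34 lies, was at 0.07 ± 0.16 in cTreg (adjusted p = 0.772). In eTreg it was at -0.53 ± 0.14 (adjusted p = 0.0336), and this call was lost on leaving out replicate 1 (0.134) or 3 (0.109) of WT eTreg or any single KO eTreg library (0.0829 to 0.0936). Stk17b beside Dnah7a rose in cTreg by 0.30 ± 0.05 (adjusted p = 1.35e-04), and its rise in eTreg of 0.17 ± 0.05 (0.0313) was lost when any eTreg library was left out (up to 0.123) and with scaling that leaves out Rn45s (0.0900). In cTreg, the call of Asxl1 beside Nol4l (0.16 ± 0.05) was lost on leaving out replicate 2 or 3 of either genotype's cTreg (up to 0.0661). That of Ddx3x near Gpr34 (-0.16 ± 0.05) was lost on leaving out a KO cTreg library, WT cTreg replicate 1 or 2, or replicate 3 of either eTreg group (up to 0.154).

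**Figure D5:**
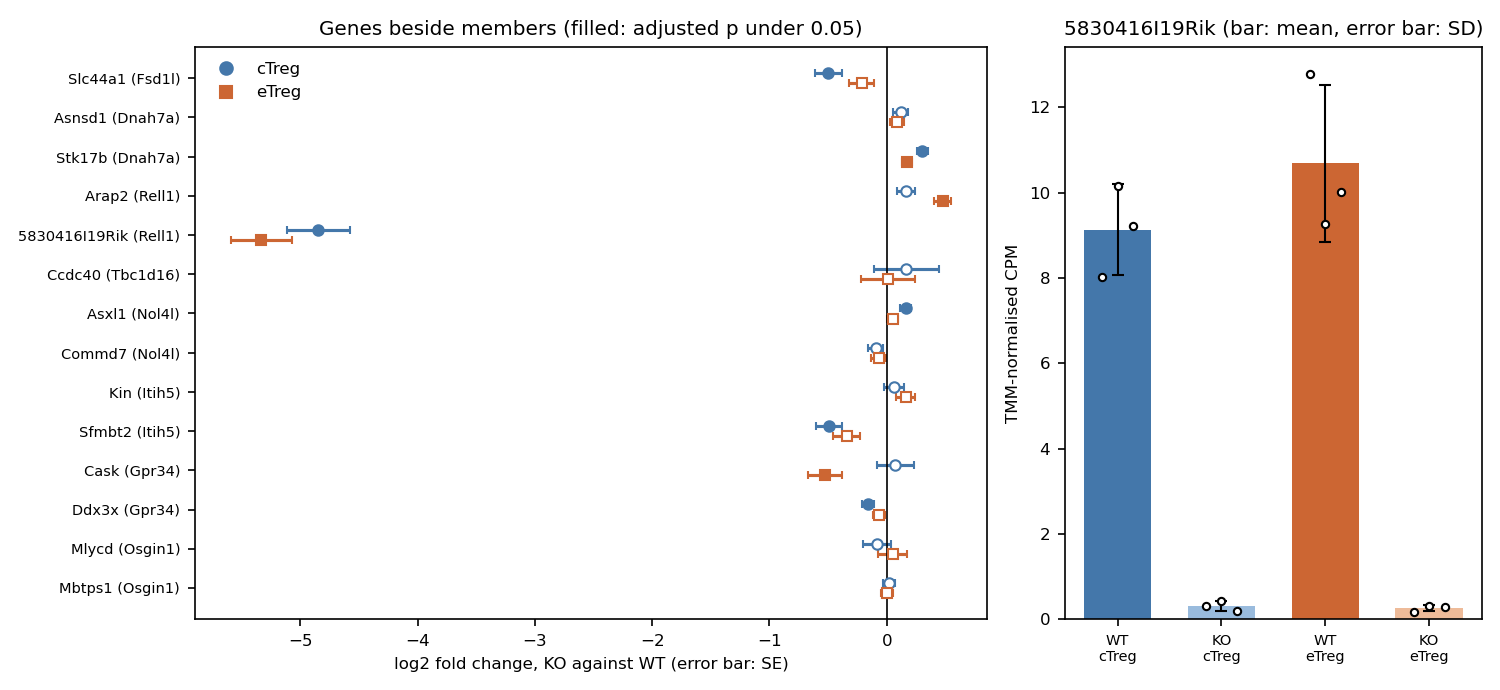
Left, log2 fold change of KO against WT with SE for genes beside the members (member in brackets), in cTreg (circles) and eTreg (squares), filled where the adjusted p is under 0.05; Cask overlaps Gpr34, and Efhc2, at most 0.757 CPM in any group, is not drawn. Right, TMM-normalised CPM of 5830416I19Rik with group means and SD; its values of -4.85 and -5.33 stand apart from those of all other neighbours drawn, which lie between -0.53 and 0.48.

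Relatives of the members were read from lists of their families and pathways. Over all tested genes, 12.6% were called lower and 14.8% higher in KO cTreg. In KO eTreg the shares were 3.40% lower and 3.25% higher. Most lists are small, so their counts of calls, or a lack of calls, set them apart little from those shares. For Rell1, the RELT family and the kinases that bind it numbered 4 tested genes. In cTreg 2 of them were lower and 1 higher, and in eTreg none was called. Rell2, its closest relative, went from 6.55 to 3.39 CPM in cTreg (log2 fold change -0.95 ± 0.19, edgeR's adjusted p = 0.00120). Relt went from 52.6 to 35.7 CPM (-0.56 ± 0.08, adjusted p = 3.26e-05). In eTreg the values were -0.37 ± 0.22 for Rell2 (0.384) and -0.23 ± 0.09 for Relt (0.131). Stk39, a kinase, was higher in cTreg by 0.26 ± 0.07 (adjusted p = 0.0106), a call lost without WT cTreg replicate 1 (0.0521) or KO cTreg replicate 1 (0.0508). Neither relative fell by 1 log2 in either gate, as Rell1 did in both; the difference between them was not tested.

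For Dnah7a, 6 other dynein heavy chain genes were tested. In cTreg 1 was lower and none higher, and in eTreg none was called. Dnah17, another axonemal chain, fell by 0.90 ± 0.14 on the log2 scale in cTreg, from 17.7 to 9.49 CPM (edgeR, adjusted p = 1.35e-04), with -0.40 ± 0.16 in eTreg (0.155). Dync1h1, the heavy chain of cytoplasmic dynein, was at -0.08 ± 0.05 in cTreg and 0.01 ± 0.05 in eTreg.

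Tbc1d16 is one of many TBC domain proteins, and 36 others were tested. Their median log2 fold change was 0.00744 in cTreg, with 6 higher and 1 lower, and 0.0361 in eTreg, with none called. Tbc1d31 rose most among those called, by 0.87 ± 0.16 in cTreg (edgeR, adjusted p = 7.35e-04). The 1 lower, Rabgap1l, was at -0.14 ± 0.05 (0.0477), and its call was lost in most of the fits that changed 1 choice. Of 16 genes of RAB4 and endosome recycling, 4 were higher in cTreg and 2 in eTreg, and none was lower. Eea1, an early endosome tether, rose by 1.37 ± 0.10 in cTreg (adjusted p = 8.36e-07) and 0.51 ± 0.09 in eTreg (0.00415), and it was also far higher in eTreg than in cTreg. Ehd4 rose by 1.10 ± 0.17 in cTreg (adjusted p = 2.23e-04), and in eTreg its value of 0.41 ± 0.16 (0.155) passed only with the replicate block (0.0141) or without WT eTreg replicate 2 (0.0299). Rab4a itself was at 0.15 ± 0.23 in cTreg and -0.21 ± 0.21 in eTreg, neither called.

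Among 5 tested relatives of Fsd1l with fibronectin and SPRY domains, 1 was higher and 1 lower in either gate. The higher gene was Mid2 in cTreg, at 0.377 CPM in WT and 1.66 in KO (log2 fold change 2.09 ± 0.59, edgeR's adjusted p = 0.0210), and Trim36 in eTreg (0.72 ± 0.20, adjusted p = 0.0415). Both calls were fragile: that of Mid2 was lost with limma-voom (0.126) and on leaving out replicate 1 or 3 of WT cTreg or 1 or 2 of KO cTreg (up to 0.0887), and that of Trim36 was lost in several other fits (up to 0.156), among them those without any single WT eTreg library or without replicate 2 or 3 of KO eTreg. Mid2 was also far higher in eTreg than in cTreg, at 13.5 CPM in WT eTreg. Mid1, a microtubule-binding ubiquitin ligase, fell by 0.66 ± 0.21 in cTreg (edgeR, adjusted p = 0.0282) and by 0.96 ± 0.21 in eTreg (0.0115). Its call in cTreg was lost without WT cTreg replicate 2 (0.135) or KO cTreg replicate 3 (0.138), and that in eTreg on leaving out replicate 1 of WT (0.0517) or of KO (0.0503). The only relative of Nol4l listed, Nol4, had 0 counts in all libraries.

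For Gpr34, the other receptors of its lipid did not pass the test in either gate. P2ry10 was at 0.00 ± 0.07 in cTreg and 0.13 ± 0.07 in eTreg, and Gpr174 at -0.11 ± 0.12 and 0.01 ± 0.11 on the log2 scale, with edgeR's adjusted p between 0.360 and 0.971, although Gpr174 passed in cTreg without KO cTreg replicate 1 (0.0386). Of 7 genes of lysophosphatidylserine receptors and enzymes, 2 were higher in cTreg, 1 in eTreg and none lower. Mboat1, an acyltransferase of that lipid, rose by 0.76 ± 0.11 in cTreg (adjusted p = 1.02e-04). Its rise of 0.44 ± 0.11 in eTreg (0.0282) was lost on leaving out replicate 1 or 3 of WT eTreg, or 2 or 3 of KO eTreg (up to 0.147). Gpr171, a receptor of the related P2Y12-like family, rose by 0.56 ± 0.08 in cTreg (adjusted p = 3.10e-05) and 0.32 ± 0.07 in eTreg (0.00750), the opposite direction to Gpr34.

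No other listed gene of the inter-alpha-trypsin inhibitor family had enough reads to be tested beside Itih5. Of 7 tested genes of hyaluronan synthesis, breakdown and binding, 1 was higher and none lower in cTreg, and none was called in eTreg. The 1 was Cd44, the hyaluronan receptor and a marker of the eTreg gate, which in cTreg went from 117 to 199.5 CPM (log2 fold change 0.77 ± 0.09, edgeR's adjusted p = 2.72e-05). For Osgin1, 20 other NRF2 targets and relatives were tested, of which 4 were higher and 1 lower in cTreg and 1 higher in eTreg. Srxn1, the sulfiredoxin gene and a standard NRF2 target, rose from 0.352 to 2.58 CPM in cTreg, by 2.85 ± 0.36 (edgeR's adjusted p = 1.65e-05). In eTreg it rose by 0.83 ± 0.19 (0.0136), a call lost without WT eTreg replicate 2 (0.0713). It was also far higher in eTreg than in cTreg, at 6.08 CPM in WT eTreg. Gclc, a glutathione synthesis gene, fell by 0.27 ± 0.06 in cTreg (adjusted p = 0.00181). Nqo1 (0.33 ± 0.41 in cTreg, 0.20 ± 0.39 in eTreg) and Osgin2 (0.05 ± 0.12 and -0.12 ± 0.11) were not called.

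The interleukin-2 receptor and STAT5 pathway was listed beside these families. Of its 25 tested genes, 12 were lower and 5 higher in cTreg and 10 lower and 2 higher in eTreg, with median log2 fold changes of -0.34 and -0.07. Socs2 fell by 1.73 ± 0.10 in cTreg and by 1.35 ± 0.09 in eTreg (edgeR's adjusted p = 9.48e-09 and 1.67e-07), while Lta was at -1.42 ± 0.09 and -1.51 ± 0.09 (3.47e-08 and 4.81e-08). Il2ra, the deleted gene, counts among the lower genes of this list. The values of Rell1 (-1.48 and -1.73) were close in size to those of Lta, and that of Fsd1l in cTreg (-2.94) was larger than that of Socs2. Pim2, a STAT5-induced kinase gene, rose instead, by 0.65 ± 0.07 and 0.44 ± 0.07 (3.95e-06 and 9.44e-04).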

How the data were processed

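Per the labels' protocols, Treg RNA came from a Qiagen RNeasy extraction, and the KAPA RNA HyperPrep kit with RiboErase made the libraries. HISAT2 2.2.1, Cell Ranger and mm10 are named in the submitters' processing notes with no role. Which counter and gene models were used, and whether by strand, is not given in the sources used here. The authors deposited 1 table of raw counts (24421 gene rows, 12 library columns), of which 27 carry month-like names and are not named here.

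The count models used edgeR 4.0.16 in R 4.3.3: filterByExpr kept 12461 genes, TMM scaled the libraries, and 1 fit held all 12 (robust quasi-likelihood F-test, two-sided, Benjamini-Hochberg adjustment over 12461 genes, called at an adjusted p under 0.05). SE come from the same fit, and CPM are TMM-normalised. The tested comparison for the members was eTreg against cTreg averaged over genotypes; KO against WT was tested for genes other than the members; for the members, chosen by it, calls are only counted beside the share of all genes and support nothing. Positions and exon lengths are from GENCODE vM21 (mm10), matched by symbol for 11947 of the tested genes, and promoter windows from RefSeq (GRCm38.p6), matched for 6 members. The steps were tested on simulated data. The members and the lists were chosen with earlier results of these data known. The genes named are the members, list genes called in KO against WT (at most 2 each way where over 5 were called) with a few uncalled relatives picked for their role, the nearest and overlapping genes, and those of the most alike pattern; some that this rule takes are not reported here.

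Totals per library ranged from 14567313 to 19121577 counts, and members had 18 to 1914 counts per library, which limits the precision of the lowest. No 2 libraries of a group were duplicates (chi-squared per degree of freedom of 3.68 to 10.3). Same-numbered WT and KO eTreg libraries deviated together from their group means (correlations 0.257, 0.341 and 0.166), those of cTreg did not (-0.105, 0.005 and 0.062). The main fit used no pairs, and replicate numbers entered only the alternative fits with a replicate block. Reading them as pairs in eTreg rests on the data alone, as no label mentions a common litter or day. Alternatives were DESeq2 1.42.0 (size factors and Wald test), limma-voom (limma 3.58.1), an absent or stricter filter (3 libraries with a CPM of at least 1), a minimum log2 fold change of 1, a replicate block, fits on the 6 libraries of 1 gate, and leaving out each library. Added after seeing the data were scaling without Rn45s, the block within eTreg, and the neighbours and list genes under every alternative.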

Additional observations from a re-analysis of the deposited data

How the results depend on the processing

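The direction of every member, in all 3 comparisons, was kept in every alternative run. KO against WT values of the members moved by less than the spread between replicates in 328 of 328 refits, and their median log2 fold change ranged from -1.91 to -1.85 in cTreg and from -1.34 to -1.22 in eTreg. The gate difference kept its side of the threshold in 149 of 152 refits, the exceptions being those of Rell1 given above. With a minimum absolute log2 fold change of 1, genes called were 2575 for the gates in place of 9982, 742 in place of 3421 for KO in cTreg and 136 in place of 829 for KO in eTreg, and 1 member was higher and 1 lower in eTreg. Leaving out 1 library gave 455 to 890 genes called for KO in eTreg, with 455 without WT eTreg replicate 2, 462 without KO eTreg replicate 3 and 497 without WT eTreg replicate 3. The replicate block gave 9996, 3410 and 857 genes over 12 libraries, and 1712 (921 higher, 791 lower) within the 6 eTreg libraries. Among the neighbours and list genes named, the block within eTreg changed the calls of Ehd4 and Mid2 (0.41, adjusted p = 0.00947 by edgeR, from 0.360) and no other. Over 12 libraries it changed that of Rabgap1l. Whether the block changes the KO calls of the members was not examined. Scaling without Rn45s gave 301 higher and 546 lower genes for KO in eTreg, against 405 and 424. No scaling moved the median of all genes by 0.1 log2. Of 2091 refitted values of neighbours and list genes, 2002 kept their direction and side of the threshold. Depth limits Tbc1d16 in KO eTreg and 5830416I19Rik in KO cells most, where counts per library were lowest; the cause of the changes in counts was not tested.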
